A study of Capra hircus with 8 samples.

Results

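The subject is 203 long non-coding RNAs (lncRNAs) that were present in every library of a study of goat (Capra hircus) embryos. They were chosen by measured values: their identifiers start with lnc_ and a number, and each had 2 FPKM or more in each of the 8 libraries. FPKM counts the reads of a transcript per 1000 bases of its length and per 1000000 reads of the library. The 203 came from 4506 numbered lncRNAs in a table of 6011 lncRNAs, the other 1505 of which are annotated ones. Of the 4506, 793 were above 0 in each library.

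The samples were SCNT embryos at the 8-cell stage, IVF embryos at the 8-cell stage, SCNT embryos at the 4-cell stage and IVF embryos at the 4-cell stage, with 2 libraries in each of the 4 groups. IVF embryos come from fertilisation of eggs in a dish. SCNT, somatic cell nuclear transfer, puts the nucleus of a body cell into an egg that has lost its own nucleus. Embryos were lysed without RNA purification, and cDNA of their polyadenylated RNA was made with Smart-seq2, a full-length method for very small inputs. The labels do not name the donor cell type, the breed or the number of embryos in a library. They also do not say that the replicates are separate pools of embryos, so the p-values measure only the spread between these samples, which may be technical.

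An lncRNA is a long transcript that is not translated into a protein, and known lncRNAs act in gene silencing, chromatin regulation and RNA processing. In the first divisions of a mammalian embryo, RNA stored in the egg is degraded and the genome of the embryo is switched on. In goat embryos the main wave of this activation is placed around the 8-cell stage, so the 4-cell and 8-cell libraries stand near its start. No function, position or sequence is attached to the numbered lncRNAs in the files used here, and they are therefore described by number, length and level alone.

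The rule uses the level in every library and no difference between groups. It removes any lncRNA that dropped under 2 FPKM in 1 library, so a loss of expression cannot appear among the 203. The members just inside the threshold were lnc_2995, lnc_1727 and lnc_3578, with lowest values of 2.01, 2.02 and 2.04 FPKM. The numbered lncRNAs just outside it were lnc_4025, lnc_3268 and lnc_245, with lowest values of 1.98, 1.97 and 1.96 FPKM. The number of lncRNAs that met the rule was 309 at a threshold of 1 FPKM and 99 at a threshold of 5 FPKM.

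The spacing of the FPKM values gave the number of reads behind each value and the total by which each library was scaled. Whether these totals are of mapped or of counted reads is not stated. In units of 1000000 reads, the totals were 28.4 and 28.5 in the SCNT 8-cell libraries, 27.5 and 30.3 in the IVF 8-cell libraries, 28.9 and 29.2 in the SCNT 4-cell libraries, and 26.9 and 28.7 in the IVF 4-cell libraries. For each of the 203 members, all 8 values came to whole reads within 0.02 read. The lowest number of reads behind any value was 25, for lnc_1374 in IVF 8-cell replicate 1, where 2.07 FPKM had a 95% exact Poisson interval of 1.34 to 3.06 FPKM. The median over members of the lowest read number was 298, and 19 members had under 100 reads in some library. Such an interval covers counting error only, because reads from PCR copies of 1 molecule were not told apart.

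The same steps gave the length used for each lncRNA. The members had a median length of 2124 bases, from 332 bases for lnc_3080 to 10749 bases for lnc_1039, and quartiles of 1422.5 and 3112 bases. The 1879 other numbered lncRNAs that passed the filter on low values had a median length of 1722 bases. Their lengths are the smallest that gave whole reads and may be too short where many values are 0. Over the members, length and mean log2 level had a rank correlation of −0.09, given as a description of 203 lncRNAs that share the same libraries.

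The 203 lncRNAs made up a large share of the lncRNA signal and a small share of the recovered read totals. They held 31.9% and 28.3% of the summed lncRNA FPKM in the SCNT 8-cell libraries, 29.8% and 40.5% in the IVF 8-cell libraries, 33.8% and 31.9% in the SCNT 4-cell libraries, and 35.1% and 33.7% in the IVF 4-cell libraries. Their share of the recovered totals was 1.01% and 1.0% in SCNT 8-cell, 1.70% and 2.19% in IVF 8-cell, 1.26% and 1.11% in SCNT 4-cell, and 1.20% and 1.57% in IVF 4-cell libraries. Both IVF 8-cell libraries therefore lay above the other 6 in share of reads. This was not particular to the 203, because the summed FPKM of all lncRNAs was also highest there. It was 31180 and 29304 in IVF 8-cell, against 15847 and 19463 in SCNT 8-cell libraries, and 25445 in IVF 4-cell replicate 2, the next highest. In bulk samples such as these, fewer cells with a transcript and less of it per cell cannot be told apart.

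The median level of the 203 was 7.90 and 8.88 FPKM in the SCNT 8-cell libraries, 10.3 and 15.2 FPKM in the IVF 8-cell libraries, 9.82 and 8.46 FPKM in the SCNT 4-cell libraries, and 8.14 and 10.6 FPKM in the IVF 4-cell libraries. The highest median belonged to IVF 8-cell replicate 2 and the lowest to SCNT 8-cell replicate 1. The other 6 libraries lay between 8.14 and 10.6 FPKM.

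**Figure D1:**
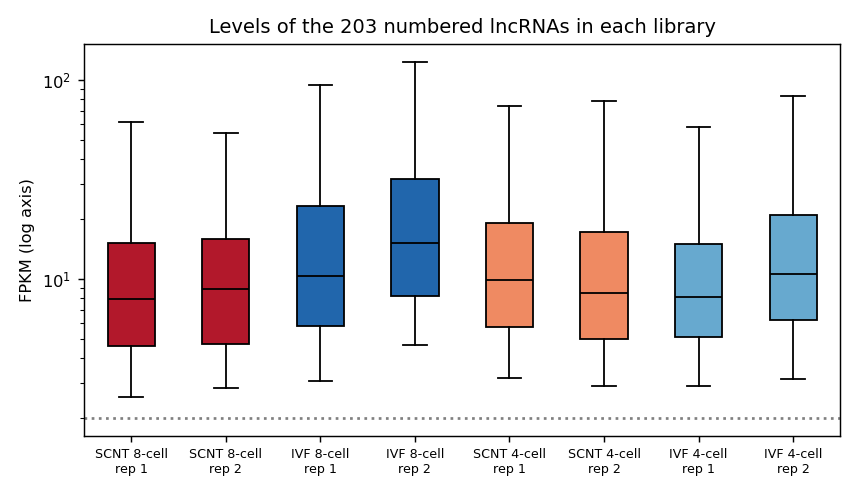
FPKM of the 203 numbered lncRNAs in each of the 8 libraries, on a log axis. Boxes show the quartiles and the median, whiskers the central 90% of the lncRNAs, and the dotted line the 2 FPKM of the selection rule. The box of IVF 8-cell replicate 2, with a median of 15.2 FPKM, stands above the others.

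Averaged over the 8 libraries, the members had a median of 10.2 FPKM and a minimum of 3.08 FPKM, with 104 at 10 FPKM or more and 10 at 100 FPKM or more. The most abundant was lnc_3094, of 1493 bases. It had 1510 and 1765 FPKM in SCNT 8-cell, 2709 and 4112 FPKM in IVF 8-cell, 1751 and 1414 FPKM in SCNT 4-cell, and 1832 and 2399 FPKM in IVF 4-cell libraries. Every SCNT value lay below every IVF value, and the 8-cell difference of −1.03 ± 0.29 (SE, log2) did not reach an adjusted p of 0.05 (0.11). This single lncRNA held between 25.3% and 34.6% of the summed FPKM of the 203 in each library.

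The other members with the highest mean level were lnc_3602, lnc_416, lnc_4249, lnc_64, lnc_3069, lnc_4311 and lnc_3024. Of these, lnc_3602 had 232 and 475 FPKM in SCNT 8-cell, 312 and 420 FPKM in IVF 8-cell, 740 and 388 FPKM in SCNT 4-cell, and 755 and 815 FPKM in IVF 4-cell libraries. Its IVF 8-cell values lay below its IVF 4-cell values, while its SCNT libraries overlapped between stages. The 8-cell levels of lnc_4311 were 89.3 and 50.8 FPKM in SCNT, against 252 and 233 FPKM in IVF, and the log2 difference, −1.84 ± 0.40 (SE), missed the threshold (adjusted p = 0.062). For lnc_64 they were 220 and 31.2 FPKM in SCNT, against 451 and 280 FPKM in IVF. The SCNT replicates of lnc_64 were farther apart than its IVF replicates, and the groups did not overlap (−2.09 ± 0.91, adjusted p = 0.25). At the same stage lnc_4249 had 67.2 and 266 FPKM in SCNT, against 348 and 489 FPKM in IVF (−1.62 ± 0.64, adjusted p = 0.21), and lnc_3024 had 94.0 and 98.4 FPKM in SCNT, against 153 and 260.5 FPKM in IVF (−1.05 ± 0.37, adjusted p = 0.18). The SCNT pair was the lower one in each.

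The spread of a member over the 8 libraries was measured as the range of log2(FPKM + 0.5). Its median was 1.65, with 20 members under 1, 55 over 2 and 12 over 3. The steadiest were lnc_2786 (range 0.52), lnc_2230 (0.64), lnc_1189 (0.65), lnc_3080 (0.66) and lnc_1039 (0.70). Their levels differed widely: lnc_1189 stood between 27.6 and 43.7 FPKM, lnc_2230 between 7.67 and 12.2 FPKM, and lnc_2786 between 2.45 and 3.75 FPKM. None of the 5 passed in any of the 7 comparisons.

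The widest range, 5.30, belonged to lnc_2816, singled out after its values were seen. It had 73.6 and 5.47 FPKM in SCNT 8-cell, 131 and 234 FPKM in IVF 8-cell, 104 and 98.5 FPKM in SCNT 4-cell, and 101 and 64.3 FPKM in IVF 4-cell libraries. A single low value, in SCNT 8-cell replicate 2, set this range. At the 8-cell stage the SCNT minus IVF difference was −3.06 ± 1.09 (SE) and missed the threshold (adjusted p = 0.18). A like case, also chosen after the values were seen, was lnc_3457, with 48.8 and 5.41 FPKM in SCNT 8-cell, 4.95 and 4.62 FPKM in IVF 8-cell, 55.8 and 43.3 FPKM in SCNT 4-cell, and 42.0 and 5.23 FPKM in IVF 4-cell libraries. Its 8 values fell into a set of 4 near 5 FPKM and a set of 4 above 40 FPKM, which divided the SCNT 8-cell and the IVF 4-cell replicates. At each stage both SCNT values still lay above both IVF values.

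**Figure D2:**
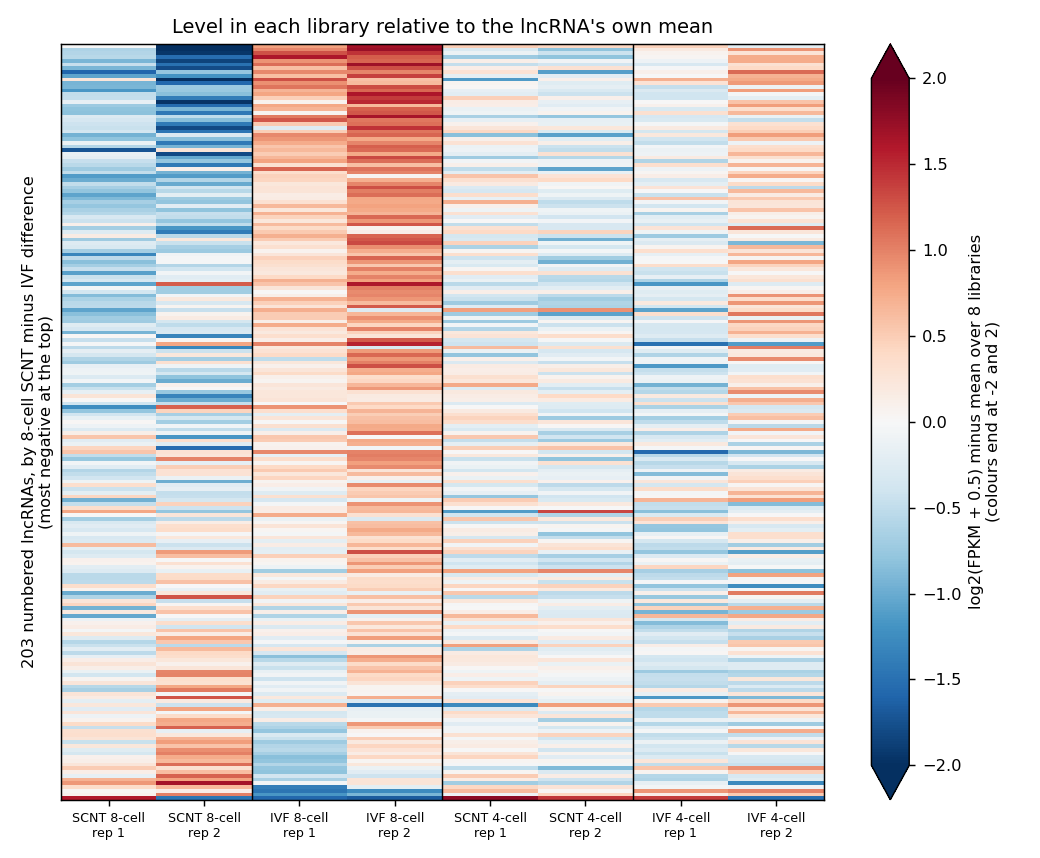
The 203 numbered lncRNAs (rows) in the 8 libraries (columns). Colour is log2(FPKM + 0.5) minus the mean of the lncRNA over the 8 libraries, red above and blue below, with colours ending at −2 and 2. Rows run from the most negative 8-cell SCNT minus IVF difference at the top, and the order is therefore no independent pattern of the 8-cell columns.

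Replicates differed most in the SCNT 8-cell pair. The median absolute log2 difference between the replicates of a group, over the 203, was 0.58 in SCNT 8-cell, 0.51 in IVF 8-cell, 0.24 in SCNT 4-cell and 0.40 in IVF 4-cell embryos. A difference of more than 1 was seen in 45, 23, 7 and 17 members of these pairs. The order was the same over all 2611 lncRNAs tested, with medians of 0.63, 0.53, 0.33 and 0.49. A difference of more than 1 was seen there in 868, 748, 509 and 610 lncRNAs. In IVF 8-cell embryos the difference was mostly to 1 side: replicate 2 exceeded replicate 1 by a median of 0.50 over the members, against 0.00 over all 2611 lncRNAs tested. In SCNT 8-cell embryos the same median was 0.11 over the members and 0.15 over all tested.

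The library with the highest value of a member was IVF 8-cell replicate 2 for 109 of the 203. It was an SCNT 8-cell library for 3 and 31, IVF 8-cell replicate 1 for 12, SCNT 4-cell for 8 and 8, and IVF 4-cell for 0 and 32, in replicates 1 and 2. The lowest value stood in SCNT 8-cell replicates 1 and 2 for 35 and 60 members, in IVF 8-cell for 19 and 4, in SCNT 4-cell for 7 and 26, and in IVF 4-cell for 34 and 18. The highest values were thus concentrated in 1 library, and the lowest ones most often lay in the SCNT 8-cell pair.

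**Figure D3:**
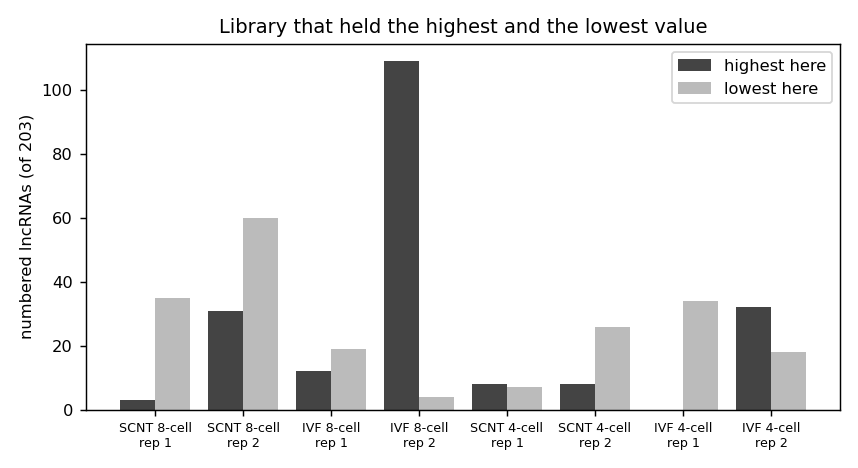
Number of the 203 numbered lncRNAs whose highest (dark bars) and lowest (light bars) value over the 8 libraries stood in each library. IVF 8-cell replicate 2 held 109 of the highest values and 4 of the lowest.

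The comparison of SCNT with IVF embryos at the 8-cell stage asked which of these lncRNAs differ after nuclear transfer, at the stage for which the series names embryonic genome activation. Of the 203 members, 11 fell in SCNT embryos and 0 rose (limma, Benjamini-Hochberg adjusted p under 0.05 over all 2611 lncRNAs tested). That is 5.42% of the members lower and none higher, against 3.26% lower and 1.49% higher over all lncRNAs tested. An unadjusted p under 0.05 was found for 66 members (32.5%), 62 of them lower in SCNT, against 21.8% of all tested, where 417 of 568 were lower. Over the members, the median log2 difference was −0.64, with 162 of 203 negative, and the median over all tested was −0.33.

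The clearest of the abundant members was lnc_416, of 998 bases. Its level was 296 and 152 FPKM in SCNT 8-cell and 1339 and 1016 FPKM in IVF 8-cell embryos, a log2 difference of −2.45 ± 0.41 (SE; adjusted p = 0.0345). At the 4-cell stage it had 263 and 249 FPKM in SCNT, against 447 and 732 FPKM in IVF embryos (−1.16 ± 0.41, adjusted p = 0.47). All 4 SCNT libraries lay below all 4 IVF libraries, and the difference passed at the 8-cell stage alone. Whether the difference itself changed between the stages was tested too and did not pass (−1.30 ± 0.58, adjusted p = 0.43).

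The largest fall among the passing members was that of lnc_2392, of 3322 bases, with 12.4 and 4.50 FPKM in SCNT 8-cell and 46.2 and 52.0 FPKM in IVF 8-cell embryos (−2.63 ± 0.49 SE, adjusted p = 0.0405). For lnc_2814, one of the shorter members at 400 bases, the values were 26.5 and 13.6 FPKM in SCNT, against 94.2 and 114 FPKM in IVF (−2.41 ± 0.45, adjusted p = 0.0405). In both, the higher SCNT library stayed far below the lower IVF library. At the 4-cell stage the corresponding values were 17.4 and 13.8 against 19.8 and 22.8 FPKM for lnc_2392, and 54.3 and 47.8 against 46.5 and 84.5 FPKM for lnc_2814, in SCNT and IVF embryos. The 4-cell groups of lnc_2814 overlapped, and those of lnc_2392 lay close together without overlap.

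Next came lnc_3178 with 12.2 and 5.71 FPKM in SCNT 8-cell and 37.5 and 56.0 FPKM in IVF 8-cell embryos (−2.38 ± 0.47, adjusted p = 0.0445). The fall of lnc_3013 was −2.30 ± 0.45 (adjusted p = 0.0429), with 6.39 and 3.23 FPKM in SCNT, against 19.1 and 31.2 FPKM in IVF. That of lnc_3586 was −2.11 ± 0.40 (adjusted p = 0.0405), with 20.4 and 18.5 FPKM in SCNT, against 65.3 and 112 FPKM in IVF. The groups did not overlap in any of the 3. Each fell by more than 2 on the log2 scale, a step of 4 in level.

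Among members named for another reason, lnc_1727, which is just inside the threshold, had 2.02 and 2.36 FPKM in SCNT 8-cell and 9.50 and 11.2 FPKM in IVF 8-cell embryos (−2.01 ± 0.35, adjusted p = 0.0362). Its IVF 4-cell values of 2.90 and 3.90 FPKM and its SCNT 4-cell values of 4.34 and 3.68 FPKM overlapped. Only in the IVF 8-cell libraries did it stand above 5 FPKM. The level of lnc_3068 was 4.90 and 2.94 FPKM in SCNT 8-cell and 18.7 and 15.4 FPKM in IVF 8-cell embryos (−2.02 ± 0.40, adjusted p = 0.0445), and all of its SCNT values lay below all of its IVF values. The remaining 3 of the 11, outside the naming rule, were lnc_2384 (−1.80), lnc_2982 (−1.73) and lnc_2965 (−1.73).

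**Figure D4:**
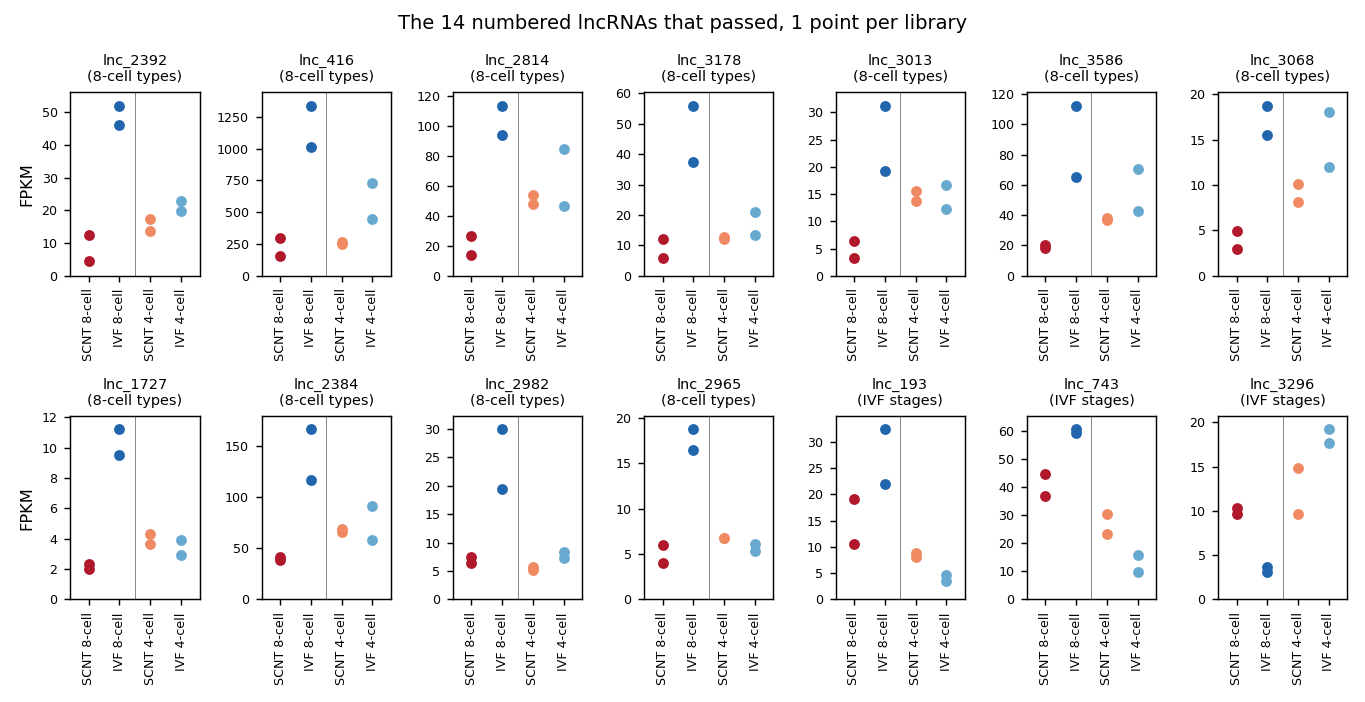
FPKM of the 14 numbered lncRNAs that passed, 1 point per library, each panel on its own axis from 0. The first 11 panels passed in SCNT against IVF at the 8-cell stage, and in each both red SCNT 8-cell points lie below both dark blue IVF 8-cell points. The last 3 panels, lnc_193, lnc_743 and lnc_3296, passed in 8-cell against 4-cell IVF embryos.

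Both SCNT 8-cell libraries lay below both IVF 8-cell libraries in 109 members, 53.7% of the 203, against 33.6% of all lncRNAs tested. They lay above in 15 members, 7.39%, against 11.9% of all tested. Of these 15, lnc_3296 had the smallest p, with 9.66 and 10.3 FPKM in SCNT, against 3.08 and 3.63 FPKM in IVF (1.45 ± 0.35, adjusted p = 0.073). These shares without overlap, and those given below, compare sets of unlike level. Only 1273 lncRNAs of the whole table were above 0 in each library. Where both groups hold a 0, they cannot be free of overlap. At the 4-cell stage, where no member passed, the members' shares also exceeded those of all tested, in both directions. The median was more negative in the more abundant members, as a description without a test: the median log2 difference was −0.43 in 28 members under 5 FPKM on average, −0.46 in 71 at 5 to 10 FPKM, −0.80 in 57 at 10 to 20 FPKM and −1.03 in 47 at 20 FPKM or more. These 4 bands held 1, 1, 3 and 6 of the passing members. The rule keeps every value at 2 FPKM or more, which leaves members of low mean level less room for a fall. The pseudocount also shrinks differences at low level, so the order of the bands is partly set by the selection and the scale.

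The 1879 other numbered lncRNAs tested went the same way as the members, to a smaller extent on a scale that shrinks low-level differences. Their median 8-cell difference was −0.35, both SCNT libraries lay below both IVF libraries in 32.3% of them and above in 10.3%, and 68 fell and 29 rose. Other kinds of transcript had other values. The 115 annotated lncRNAs at 2 FPKM or more in each library had a median 8-cell difference of −0.05, with 1 that rose and 1 that fell; both SCNT libraries lay below both IVF libraries in 29.6% of them and above in 23.5%. Among 6139 protein-coding genes at 2 FPKM or more in each 8-cell library the median was 0.25, with 19.2% below and 40.8% above. The difference between the numbered lncRNAs and these sets was not tested. The values are given side by side as a description of the same libraries.

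The count of 11 depended on the scaling and on single libraries. It was 0 after centring each library on its median, where 0.613% of all tested passed as lower and 1.38% as higher in SCNT. It was 3 after median-of-ratios scaling (2 higher and 1 lower, against 1.76% and 2.3% of all tested) and 1, higher in SCNT, after quantile normalization (1.53% higher and 1.34% lower over all tested). It was 0 without any 1 of the 4-cell libraries, 2 when SCNT 8-cell replicate 2 was left out, 13 when replicate 1 of that group was, 3 with IVF 8-cell replicate 1 left out and 1, higher in SCNT, with replicate 2 of that group left out. The median over members stayed negative in each, between −0.89 and −0.47 with a library left out, and was −0.31, −0.22 and −0.08 after the 3 rescalings, which moved the median over all tested to 0.00, −0.08 and 0.00. A weighted limma fit to the recovered reads (voom), chosen after the data were seen, called 18, among them all 11. Of the 18, 17 were lower in SCNT, 8.37% of the members against 4.4% of all tested, and 1 was higher, against 2.45% of all tested. The medians of the voom fit, −0.70 over the members and −0.54 over all tested, lay closer together than those of the main fit. For the fits with a library left out, here and below, no share over all tested is given. Their counts therefore cannot be set against a general rate.

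At the 4-cell stage, none of the 203 passed between SCNT and IVF embryos in limma, against 0.421% of all lncRNAs tested, and the unadjusted p was under 0.05 for 9 (4.43%, against 9.15% of all tested). The voom fit called none either. Over the members the median difference was −0.06 (log2), against −0.02 over all tested. Both SCNT 4-cell libraries lay above both IVF 4-cell libraries in 58 members (28.6%, against 16.9% of all tested) and below in 57 (28.1%, against 22.5%). The higher and the lower members were thus nearly equal in number.

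The members with the smallest p at the 4-cell stage, picked after the values were seen, were lnc_2997 and lnc_671. The level of lnc_2997 was 17.3 and 17.7 FPKM in SCNT 4-cell and 7.14 and 5.07 FPKM in IVF 4-cell embryos (1.46 ± 0.33, adjusted p = 0.26), and 16.3 and 12.8 FPKM in SCNT 8-cell and 17.1 and 16.7 FPKM in IVF 8-cell embryos. Its IVF 4-cell pair stood below the other 6 libraries. The level of lnc_671 was 30.3 and 23.2 FPKM in SCNT 4-cell and 64.1 and 81.9 FPKM in IVF 4-cell embryos (−1.43 ± 0.35, adjusted p = 0.31). At the 8-cell stage the order was the other way round, with 61.5 and 54.1 FPKM in SCNT, against 25.1 and 39.8 FPKM in IVF embryos (0.86 ± 0.35, adjusted p = 0.23). No pair of groups of lnc_671 overlapped within a stage.

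Over both stages together, both SCNT libraries lay below both IVF libraries at each stage in 38 members, 18.7% against 9.88% of all tested. They lay above at each stage in 6, 2.96% against 3.41%, which is near the share of all tested. In 16 members (7.88%, against 4.1%) they lay below at the 8-cell and above at the 4-cell stage, and in 3 (1.48%, against 1.72%) above at the 8-cell and below at the 4-cell stage. All 4 SCNT libraries lay below all 4 IVF libraries in 25 members, 12.3% of the 203, against 6.66% of all lncRNAs tested, and above in 3 members, 1.48%, against 2.14%. The 3 were lnc_3943, lnc_2485 and lnc_1023. The SCNT values of lnc_3943 spanned 13.8 to 16.2 FPKM and its IVF values 8.23 to 11.8 FPKM, a difference averaged over the stages of 0.65 ± 0.22 (adjusted p = 0.16). Among the 25, lnc_4169 spanned 3.05 to 5.62 FPKM in SCNT and 8.18 to 16.3 FPKM in IVF (−1.58 ± 0.29, adjusted p = 0.073), and lnc_2949 spanned 2.94 to 11.2 FPKM in SCNT and 15.9 to 47.2 FPKM in IVF (−1.89 ± 0.42, adjusted p = 0.086). The last 2 were picked from the 25 after their values were seen.

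The fit of this averaged difference called none of the 203 at an adjusted p under 0.05, against 0.728% of all tested, with 49 members (24.1%) at an unadjusted p under 0.05, 46 of them lower in SCNT, against 20.8% of all tested, where 390 of 543 were lower. The median was −0.38 over the members and −0.20 over all tested. The voom fit called 1 member, lower in SCNT, and 8 members, each lower, passed without SCNT 8-cell replicate 1.

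The comparison of the 8-cell with the 4-cell stage asked how these lncRNAs change across a division around genome activation. In IVF embryos, 2 members rose at the 8-cell stage, lnc_193 and lnc_743, and 1 fell, lnc_3296. That is 0.985% of the members higher and 0.493% lower, against 0.996% and 0.46% of all lncRNAs tested, so the members' share was close to that of all lncRNAs. The median log2 difference was 0.47 over the members, with 165 of 203 positive, and 0.23 over all tested. An unadjusted p under 0.05 was reached by 31 members, 15.3% against 14.3% of all tested.

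The level of lnc_193, of 1854 bases, was 22.0 and 32.4 FPKM in IVF 8-cell and 3.54 and 4.74 FPKM in IVF 4-cell embryos (2.57 ± 0.42, adjusted p = 0.0484). In SCNT embryos it was 10.6 and 19.1 FPKM at the 8-cell and 8.02 and 8.77 FPKM at the 4-cell stage (0.73 ± 0.42, adjusted p = 0.72). All 8-cell values lay above all 4-cell values in both kinds of embryo. The difference between these stage changes did not pass (−1.83 ± 0.59, adjusted p = 0.25).

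The level of lnc_743, of 1520 bases, was 59.2 and 60.4 FPKM in IVF 8-cell and 9.85 and 16.0 FPKM in IVF 4-cell embryos (2.21 ± 0.35, adjusted p = 0.0473). In SCNT embryos it was 44.4 and 36.6 FPKM at the 8-cell and 30.3 and 23.2 FPKM at the 4-cell stage (0.60 ± 0.35, adjusted p = 0.73). Here too the stages did not overlap in either kind of embryo. At the 4-cell stage the SCNT pair was above the IVF pair, and at the 8-cell stage it was below.

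The level of lnc_3296, of 2336 bases, was 3.08 and 3.63 FPKM in IVF 8-cell and 17.6 and 19.2 FPKM in IVF 4-cell embryos (−2.30 ± 0.35, adjusted p = 0.0389). In SCNT embryos it was 9.66 and 10.3 FPKM at the 8-cell and 14.8 and 9.67 FPKM at the 4-cell stage (−0.25 ± 0.35, adjusted p = 0.88). The SCNT stages overlapped, and the IVF stages stood far apart. Its difference between the stage changes was 2.05 ± 0.49 (adjusted p = 0.15).

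Both IVF 8-cell libraries lay above both IVF 4-cell libraries in 96 members, 47.3% of the 203, against 30.1% of all tested, and below in 14 members, 6.90%, against 11.3%. The SCNT against IVF comparison at the 8-cell stage uses the same 2 IVF 8-cell libraries, so the counts of the pair are not independent of each other. The count of 3 that passed was 1, lnc_3296, after median centring and after quantile normalization. It was 4 without either SCNT 8-cell library and 0 without any 1 of the other 6.

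In SCNT embryos, none of the 203 passed between the 8-cell and the 4-cell stage, against 0.843% of all lncRNAs tested, and the unadjusted p was under 0.05 for 15 (7.39%, against 9.27% of all tested). On the log2 scale, the median difference was −0.10 over the members and 0.00 over all tested. Both 8-cell libraries lay above both 4-cell libraries in 29 members (14.3%, against 16.6% of all tested) and below in 67 (33.0%, against 18.6%). Among them lnc_3011, with the smallest p and picked for it, had 3.87 and 3.87 FPKM at the 8-cell and 13.6 and 11.0 FPKM at the 4-cell stage (−1.54 ± 0.37, adjusted p = 0.19). Its IVF values were 12.6 and 9.43 FPKM at the 8-cell and 9.99 and 15.5 FPKM at the 4-cell stage. The SCNT 8-cell pair thus stood below the other 6 libraries. Without SCNT 8-cell replicate 1, 2 members passed, both lower at the 8-cell stage, and with all libraries the voom fit called none.

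**Figure D5:**
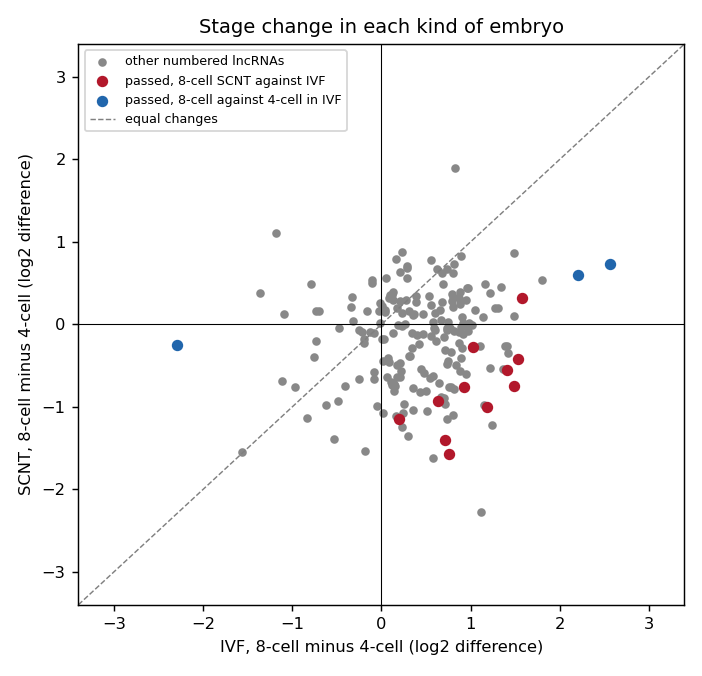
Log2 difference between the 8-cell and the 4-cell stage in SCNT embryos (vertical) against that in IVF embryos (horizontal), 1 point for each of the 203 numbered lncRNAs, with the line of equal changes. Coloured points passed in the comparison that the legend names. Most points lie right of 0 (165 of 203 positive in IVF) and below the line.

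The test of whether the stage change differed between SCNT and IVF embryos called none of the 203 in limma, against 0.574% of all tested. The count at an unadjusted p under 0.05 was 29, 14.3% of the members against 13.3% of all tested, so the share was close to that of all lncRNAs. Of the 29, 26 had the more negative change in SCNT, as had 224 of the 347 among all tested. The median of SCNT change minus IVF change was −0.67 over the members, with 156 of 203 negative, and −0.23 over all tested. In 25 members, 12.3% against 5.21% of all tested, both 8-cell libraries lay below both 4-cell libraries in SCNT and above them in IVF. They lay above in both kinds of embryo in 16 members (7.88%, against 5.44%) and below in both in 4 (1.97%, against 2.11%). In 2 members (0.985%, against 1.61%) they lay above in SCNT and below in IVF. Without SCNT 8-cell replicate 1, 2 members passed, and without IVF 8-cell replicate 1, 1 member passed, each more negative in SCNT. After quantile normalization 1 passed, more positive in SCNT, and the voom fit called none.

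The smallest p values of this test, again picked after they were seen, belonged to lnc_671 (2.29 ± 0.50, adjusted p = 0.13), whose values are given above, to lnc_1727 (−2.23 ± 0.49, adjusted p = 0.13) and to lnc_4095. For lnc_4095 the SCNT values were 19.9 and 26.6 FPKM at the 8-cell and 50.0 and 52.9 FPKM at the 4-cell stage, and the IVF values 53.9 and 66.6 FPKM at the 8-cell and 31.9 and 40.5 FPKM at the 4-cell stage (−1.87 ± 0.44, adjusted p = 0.14). Its stages did not overlap in either kind of embryo and lay in opposite order.

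Averaged over SCNT and IVF embryos, the stage change called none of the 203 in limma, against 0.574% of all tested, with 21 members at an unadjusted p under 0.05 (10.3%, against 14.5% of all tested). All 4 of the 8-cell libraries lay above all 4 of the 4-cell libraries in 8 members, 3.94% of the 203, against 2.57% of all tested, and below in 3 members, 1.48%, against 1.11%. Besides lnc_193 and lnc_743, the 8 included lnc_891, which spanned 18.9 to 41.2 FPKM at the 8-cell and 7.38 to 15.9 FPKM at the 4-cell stage (1.18 ± 0.32, adjusted p = 0.15). Among the 3 lower ones was lnc_1852, at 7.97 to 9.93 FPKM at the 8-cell and 13.9 to 22.8 FPKM at the 4-cell stage (−0.98 ± 0.24, adjusted p = 0.13). Both examples were chosen after their values were seen. Without SCNT 8-cell replicate 1, 3 members passed, 2 higher and 1 lower at the 8-cell stage, and the voom fit to all libraries called none.

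The numbers of 3 pairs of members follow each other directly. The positions of these transcripts are not given in the files, so whether they are neighbours or parts of 1 transcript cannot be told. The abundant lnc_416 was followed by lnc_417, whose level was 3.72 and 3.01 FPKM in SCNT 8-cell, 5.32 and 7.11 FPKM in IVF 8-cell, 4.45 and 2.82 FPKM in SCNT 4-cell, and 2.85 and 3.78 FPKM in IVF 4-cell libraries. Both members were lower in SCNT than in IVF 8-cell embryos without overlap, lnc_417 at −0.79 ± 0.39 without passing (adjusted p = 0.31). At the 4-cell stage the SCNT and IVF libraries of lnc_417 overlapped, and those of lnc_416 did not.

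The second pair was lnc_3068, which fell in SCNT 8-cell embryos, and the far more abundant lnc_3069. The level of lnc_3069 was 117 and 67.7 FPKM in SCNT 8-cell, 196 and 137 FPKM in IVF 8-cell, 261 and 212 FPKM in SCNT 4-cell, and 162 and 345 FPKM in IVF 4-cell libraries (8-cell difference −0.87 ± 0.47, adjusted p = 0.36). The SCNT 8-cell libraries were the lowest in both. The third pair went in opposite directions at the 8-cell stage: lnc_1729 had 19.9 and 30.1 FPKM in SCNT, against 68.9 and 34.7 FPKM in IVF (−0.98 ± 0.58, adjusted p = 0.40), while lnc_1730 had 7.30 and 14.4 FPKM in SCNT, against 2.79 and 3.43 FPKM in IVF (1.58 ± 0.45, adjusted p = 0.11). Neither of these passed.

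Markers of other cell types were measured in the 8-cell messenger RNA table, in which an embryo should show egg and embryo genes. The 10 egg and early embryo markers found there, of 12, summed to 6649 and 8997 FPKM in SCNT, against 7207 and 8099 FPKM in IVF 8-cell libraries, and 9 of them had 1 FPKM or more in every library. The most abundant, BTG4, had 3330 and 4246 FPKM in SCNT, against 5070 and 6040 FPKM in IVF; without it the sums were 3319 and 4751 FPKM in SCNT, against 2137 and 2059 FPKM in IVF. Of the 10, 8 were higher in both SCNT libraries than in both IVF libraries, and 2, BTG4 and ZAR1, were lower. The 15 fibroblast markers, a cell type often used as nuclear donor, summed to 108 and 121 FPKM in SCNT, against 140 and 131 FPKM in IVF, with 7 at 1 FPKM or more in every library. The 10 cumulus and granulosa markers found, of 12, summed to 64.4 and 98.1 FPKM in SCNT, against 87.9 and 91.9 FPKM in IVF. The most abundant was STAR, and AMH, FSHR and INHA were listed at 0 throughout. Without STAR the sums were 24.9 and 40.1 FPKM in SCNT, against 45.5 and 53.1 FPKM in IVF. Of these 10, 1, LHCGR, was higher in both SCNT libraries than in both IVF libraries, and 2, TNFAIP6 and HAS2, were lower. Of 6 sperm markers 5 were found, with sums of 18.5 and 32.3 FPKM in SCNT, against 7.76 and 11.0 FPKM in IVF, and of 5 blood markers 3, with sums of 0.532 and 1.43 FPKM in SCNT, against 0.763 and 1.06 FPKM in IVF. Most of the sperm marker sum was ODF2, at 18.4 and 32.1 FPKM in SCNT, against 7.55 and 11.0 FPKM in IVF. Without ODF2 the sums were 0.0904 and 0.166 FPKM in SCNT, against 0.207 and 0.0519 FPKM in IVF. Of the 5 sperm markers found, 2, ODF2 and TNP2, were higher in both SCNT libraries than in both IVF libraries, and 0 were lower. For TNP2 this rested on values near 0, with 0.0555 and 0.166 FPKM in SCNT, against 0 and 0.0519 FPKM in IVF. PRM2 and TNP1 were listed above 0 in IVF 8-cell replicate 1 alone, and ODF1 in SCNT 8-cell replicate 1 alone. The lower fibroblast sums in SCNT rested on the matrix proteoglycan gene DCN, at 33.9 and 39.5 FPKM in SCNT, against 94.3 and 85.5 FPKM in IVF. Without DCN the sums were 74.1 and 81.8 FPKM in SCNT, against 45.7 and 45.0 FPKM in IVF. Of the 15 fibroblast markers, 8 were higher in both SCNT libraries than in both IVF libraries (COL1A1, COL1A2, COL3A1, VIM, TIMP1, TAGLN, SPARC and S100A4) and 2, DCN and FN1, were lower. The protease inhibitor gene TIMP1 stood at 11.2 and 12.9 FPKM in SCNT, against 0.156 and 0.637 FPKM in IVF. The part of these cell types in the lncRNA differences was not tested.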

How the data were processed

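Gene expression was measured in 8 goat embryo libraries. The authors deposited 4 tables of FPKM; the table of lncRNAs at both stages was tested, and the messenger RNA table of the 8-cell stage served for markers and for protein-coding genes. Tools listed in the submitters' processing notes are HTSeq, HISAT2 2.2.1 and fastp, with no role or order; no source used here gives the genome build, the annotation or how the numbered lncRNAs were assembled. A RefSeq table of goat genes gave the gene types.

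Reads, totals and lengths were recovered from the FPKM steps. With the ratios between library totals alone, 202 of the 203 members came to whole reads, and with ratios wrong by up to 2% none did. Groups of 10 members gave the same total to the nearest read in 19 of 20 cases. For tested lncRNAs outside the 203, the smallest length from 200 bases up that gave whole reads within 0.02 read was taken. All 2611 tested had such a length, but this is no check for lncRNAs with many zeros, where several lengths can fit. Their lengths, and their reads in the voom fit, may therefore be too low.

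Tests used limma 3.58.1 in R 4.3.3 (lmFit, contrasts, eBayes with a trend) on log2(FPKM + 0.5) for lncRNAs with 2 or more libraries at 0.5 FPKM or above, with the 4 groups in 1 fit, two-sided, and Benjamini-Hochberg adjustment over 2611 lncRNAs in each of the 7 comparisons. All 203 members passed that filter. Each log2 difference is SCNT over IVF or 8-cell over 4-cell embryos, and the pseudocount makes it understate changes at low level. The scripts were tested on simulated data. The members and lists were chosen with earlier results of these data known. Named were the 8 most abundant members, up to 6 passing members with the largest difference in each direction of a comparison, the 5 steadiest, those nearest to 2 FPKM and pairs of consecutive numbers; other names are marked in the text. The knockdown in the series was not analysed here.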

Additional observations from a re-analysis of the deposited data

How the results depend on the processing

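With 2 libraries in a group, the calls rested on few values, and several alternatives moved them. For SCNT against IVF at the 8-cell stage, 11 members passed; the count was 0 with no filter on low values, 0 after median centring, 3 after median-of-ratios scaling, 1 after quantile normalization, 1 without the variance trend, 0 with only the 2 groups in the fit, and 0 to 13 with a library left out. For the stage change in IVF embryos, 3 passed; the count was 1 with a pseudocount of 1 FPKM, 0 with no filter, 1 after median centring, 1 after quantile normalization, 0 without the trend, 0 with only the 2 groups, and 0 to 4 with a library left out. The replicate number as a block gave 0 for both; the labels do not say that the numbers pair libraries, and the correlations of same-numbered deviations over the tested lncRNAs, −0.04 to 0.02, do not show it. For the comparisons with 0, the count was 1 after quantile normalization for the difference of stage changes, and with a library left out 0 to 2 for that difference, 0 to 2 for the stage change in SCNT, 0 to 8 for SCNT against IVF averaged over stages and 0 to 3 for the averaged stage change; SCNT against IVF at the 4-cell stage stayed at 0 in all. Fits chosen after seeing the data gave more: over lncRNAs above 0 in all libraries, 25 at the 8-cell stage, 9 for the averaged SCNT against IVF difference and 2 for the averaged stage change; with voom on recovered reads, 18 and 1 for the same 8-cell and averaged SCNT against IVF differences. The 11 were among the 25 and among the 18. No share over all lncRNAs is given for the fit over lncRNAs above 0 in all libraries. The same holds for the fits with a library left out. Whether their counts exceed the general rate of those fits cannot be told. The number of members was 309 and 99 at the other thresholds. Of the 14 passing members, none passed in more than 9 of the 19 alternatives. The 11 of the 8-cell comparison passed in 4 to 6 of them. Each of the 14 kept its direction in all 19 alternatives. Several of these alter the test and not the estimated difference, and the 14 were picked for their differences in these same data. The kept direction is therefore no independent check. The cause of the lost calls was not tested.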
